A study of Homo sapiens with 18 samples.

Results

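The 10 genes described here encode the main heat-shock proteins of the cytosol and the mitochondria, and were chosen by name from the 25435 rows of the deposited gene count table. They are HSPA8, HSPA1A and HSPA1B (cytosolic HSP70s), HSPH1 (HSP110), DNAJB1 (HSP40), HSP90AA1 and HSP90AB1 (cytosolic HSP90s), HSPD1 and HSPE1 (the mitochondrial HSP60 and HSP10 chaperonin pair) and HSPB1 (the small heat-shock protein HSP27). All 10 had a row and all 10 passed the filter on low counts in each of the 10 comparisons. The question was how these genes, which serve compartments outside the endoplasmic reticulum (ER), compared with ER chaperones when the ER was stressed and when the stress sensor ERN2 was induced.

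The libraries came from HEK293doxERN2 cells, a human embryonic kidney line carrying a doxycycline-inducible FLAG-ERN2 transgene, so every group carried the transgene. Doxycycline was absent (No ERN2), at 10 ng/mL (Low ERN2) or at 100 ng/mL (High ERN2) over 24 hr, each combined with DMSO as vehicle (control) or thapsigargin at 200 nM (stress) over 3 hr, which gives 6 groups of 3 libraries. No group received doxycycline without the transgene, so doxycycline itself and the ERN2 it induced cannot be told apart, and reads of the transgene and of endogenous ERN2 were not separated. Library totals ranged from 14876416 to 24652240 counts.

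ERN2 itself, the check of the labels, averaged 7.79 ± 1.27 CPM (counts-per-million, SD, n = 3) in uninduced vehicle cells, 35.2 ± 18.1 in the Low ERN2 control group and 270.0 ± 34.1 in the High ERN2 control group. Under thapsigargin the means were 12.2 ± 1.92, 65.8 ± 41.0 and 207 ± 56.0 CPM. All 6 HEK293 markers were expressed, with a summed level of 2258 to 3642 CPM. The labels' extraction text names colon crypt cells, but 8 colon markers summed to only 3.61 to 9.57 CPM, nearly all of it CDX2 (3.36 to 8.83 CPM), with TFF3 at 0 in every library, and 3 blood markers summed to at most 0.282 CPM. High ERN2 stress replicate 1 stood apart, with a median absolute log2 deviation from its group mean of 0.208 over genes (0.0751 to 0.163 in the other libraries). Low ERN2 control replicate 1, at 0.159, did not stand apart by this measure, and was singled out only after the calls without it were seen. Without High ERN2 stress replicate 1 the number of genes past the threshold rose from 1512 to 3950 for 100 against 0 ng/mL doxycycline under thapsigargin, and without Low ERN2 control replicate 1 it rose from 28 to 2743 for 10 against 0 ng/mL in vehicle. Counts of the 10 genes called are given with and without these 2 libraries.

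Cytosolic heat-shock proteins fold and refold proteins in the cytosol and nucleus. HSP70s bind unfolded stretches, J-domain cofactors such as DNAJB1 deliver clients and trigger ATP hydrolysis, and HSP110s such as HSPH1 exchange the nucleotide; HSP90s take over near-native clients, and HSPD1 with its lid HSPE1 folds proteins imported into mitochondria. Their inducible transcription is driven by heat shock factor HSF1 through heat shock elements, whereas ER chaperones such as HSPA5 (BiP) are induced by the unfolded protein response through ER stress elements. Thapsigargin blocks the SERCA calcium pumps, empties the ER calcium store and so stresses the ER. ERN2 (IRE1β) is the epithelial paralog of the ER stress sensor ERN1.

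Stretches of upstream sequence are given here for the genes that held one of these elements. RefSeq promoters (GRCh38.p14) were matched for all 10 genes, as 16 start sites, and the 250 bases before each start were searched on both strands. The 2-unit heat shock elements GAANNTTC and TTCNNGAA were in 5.78% and 6.62% of all 35116 promoters, and either was in 11.6%. One or the other was found before 8 of the 16 starts, in 8 of the 10 genes (not HSPH1 or HSPE1). DNAJB1, HSP90AA1, HSP90AB1 and HSPD1 had no match before their other starts. The 3-unit element GAANNTTCNNGAA, which contains 2-unit matches, was in 0.441% of promoters and in 4 of the 10 genes, HSPA8, HSP90AA1, HSP90AB1 and HSPD1. A selection of matches is printed below 5′ to 3′ on the strand of the gene, in stretches of 30 bases with the matching bases in capitals. HSP90AB1 held a further 3-unit match in chr6:44247822-44247851, which is not printed.
HSPA8, chr11:123062346-123062375, minus strand: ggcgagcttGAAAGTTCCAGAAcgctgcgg
HSPA8, chr11:123062171-123062200, minus strand: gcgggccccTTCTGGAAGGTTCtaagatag
DNAJB1, chr19:14518456-14518485, minus strand: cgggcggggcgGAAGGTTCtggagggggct
DNAJB1, chr19:14518426-14518455, minus strand: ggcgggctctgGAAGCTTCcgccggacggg
HSP90AA1, chr14:102087112-102087141, minus strand: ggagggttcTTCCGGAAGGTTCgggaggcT
HSP90AB1, chr6:44247769-44247798, plus strand: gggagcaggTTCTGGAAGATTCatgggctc
HSPD1, chr2:197500061-197500090, minus strand: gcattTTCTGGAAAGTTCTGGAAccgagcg
HSPB1, chr7:76302480-76302509, plus strand: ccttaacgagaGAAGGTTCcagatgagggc
In HSP90AA1 the last capital opens a further 2-unit match, the rest of which is not printed. HSPD1 and HSPE1 lie head to head on chromosome 2 on opposite strands, and the HSPD1 match fell outside the 250-base window of HSPE1.

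HSPA1A and HSPA1B, the stress-inducible HSP70 copies, had upstream regions identical at 235 of 249 aligned bases (94.4%). They are shown up to the first exon base of GENCODE 29, with the single heat shock element match in capitals.
HSPA1A upstream region, chr6:31815293-31815463, plus strand: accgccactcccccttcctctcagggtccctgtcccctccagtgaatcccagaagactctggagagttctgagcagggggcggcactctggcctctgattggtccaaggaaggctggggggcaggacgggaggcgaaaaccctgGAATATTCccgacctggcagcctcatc
HSPA1B upstream region, chr6:31827488-31827734, plus strand: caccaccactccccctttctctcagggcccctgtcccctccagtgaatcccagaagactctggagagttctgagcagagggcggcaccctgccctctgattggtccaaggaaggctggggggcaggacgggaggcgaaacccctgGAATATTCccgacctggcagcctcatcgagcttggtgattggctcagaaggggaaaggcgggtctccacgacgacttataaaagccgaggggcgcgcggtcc
None of the 10 genes held the ER stress element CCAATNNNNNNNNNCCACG in these windows, an element in 0.074% of all promoters. HSPA5 did, and is printed for contrast with the ER stress element in capitals.
HSPA5 upstream region, chr9:125241344-125241593, minus strand: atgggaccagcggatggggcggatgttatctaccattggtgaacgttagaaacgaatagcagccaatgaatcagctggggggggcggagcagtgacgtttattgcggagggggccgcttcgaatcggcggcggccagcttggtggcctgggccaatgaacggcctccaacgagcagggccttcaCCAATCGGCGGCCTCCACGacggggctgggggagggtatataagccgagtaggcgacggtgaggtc
Of 16 ER chaperone genes with a promoter in the RefSeq table, 6 held an ER stress element and 2 a heat shock element, and the 4 ER counterparts used below (HSPA5, HSP90B1, HYOU1 and DNAJB11) held no heat shock element. Of these 4, HSPA5 and HSP90B1 held an ER stress element and HYOU1 and DNAJB11 held neither. A match is a description of letters, and binding was not measured.

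In uninduced cells, thapsigargin lowered 6 of the 10 genes past an adjusted p of 0.01 (edgeR's quasi-likelihood test with Benjamini-Hochberg adjustment over 14397 genes), and all 10 lay below 0. Among all genes tested 4.74% were called lower and 6.45% higher, and the median log2 fold change was -0.72 for the 10 genes and -0.01 for all genes. ER chaperones went the other way, with 12 of 17 higher and 0 lower. The libraries are bulk, so fewer cells with a transcript and less transcript per cell cannot be told apart. Whether replicates were separate cultures was not stated, so p-values measure the spread between these libraries.

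HSPA8 (chr11:123057489-123063230, minus strand, GRCh38), the constitutive cytosolic HSP70, fell the most in absolute level. It was at 1482, 1713 and 1824 CPM in the uninduced vehicle libraries and at 434, 329 and 497 CPM in the uninduced thapsigargin libraries. At 10 ng/mL it was at 1502, 1550 and 1508 CPM in vehicle and 467, 413 and 499.7 CPM in thapsigargin. At 100 ng/mL it was at 1564, 1709 and 1747 CPM in vehicle and 835, 975 and 906 CPM in thapsigargin. All 9 thapsigargin libraries lay below all 9 vehicle libraries, and the High ERN2 stress libraries lay above the other 6 thapsigargin libraries. The log2 fold change under thapsigargin was -1.99 (SE 0.145, adjusted p = 1.39e-06 by edgeR) at 0 ng/mL, -1.73 (SE 0.113, adjusted p = 3.33e-05) at 10 ng/mL and -0.86 (SE 0.115, adjusted p = 0.00889) at 100 ng/mL. Thapsigargin thus left 25.1%, 30.3% and 54.1% of the vehicle mean at the 3 doses.

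HSPA1B (chr6:31827735-31830255, plus strand) encodes a stress-inducible HSP70 almost identical to that of HSPA1A. It was at 206, 227 and 218 CPM in uninduced vehicle libraries and 46.9, 39.5 and 58.4 CPM in uninduced thapsigargin libraries. With Low ERN2 it was at 207, 287 and 312 CPM in vehicle and 53.6, 57.6 and 83.9 CPM in thapsigargin, and with High ERN2 at 214, 337 and 275 CPM in vehicle and 131, 119 and 123 CPM in thapsigargin. As for HSPA8, every thapsigargin library lay below every vehicle library, and those with High ERN2 were the highest of the thapsigargin libraries. Its log2 fold change was -2.16 (SE 0.135, adjusted p = 4.01e-07 by edgeR) at 0 ng/mL, -2.05 (SE 0.204, adjusted p = 0.000526) at 10 ng/mL and -1.12 (SE 0.165, adjusted p = 0.0118) at 100 ng/mL, the last not past the threshold.

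HSPA1A (chr6:31815464-31817946, plus strand) was at 109, 107 and 124 CPM in uninduced vehicle and 29.7, 21.9 and 40.4 CPM in uninduced thapsigargin libraries. It kept 27.1%, 27.6% and 50.8% of the vehicle mean at 0, 10 and 100 ng/mL, with log2 fold changes of -1.88 (adjusted p = 1.6e-05 by edgeR), -1.87 (0.00182) and -0.95 (0.0191). The copies share 71.2% (HSPA1A) and 73.2% (HSPA1B) of their 75-base windows with other genes, mostly each other, and how the counting assigned such reads was not given, so their separate levels are uncertain. Summed as 1 feature they were called in the same comparisons as HSPA1B alone. The ratio of their summed counts to HSPA8 differed by -0.17 log2 between thapsigargin and vehicle (exact permutation test within doses, two-sided p = 0.085, adjusted p = 0.108). Without Low ERN2 control replicate 1 it was -0.23 (exact permutation test, adjusted p = 0.0481 over 7 tests), and without High ERN2 stress replicate 1 it was -0.20 (adjusted p = 0.091).

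DNAJB1 (chr19:14514770-14529770, minus strand), the HSP40 that partners HSP70, followed with smaller changes. It was at 174, 168 and 183 CPM in uninduced vehicle libraries and 91.1, 90.9 and 107 CPM in uninduced thapsigargin libraries, and the thapsigargin libraries lay below the vehicle libraries at each dose. Its log2 fold change was -0.85 (SE 0.105, adjusted p = 0.000131 by edgeR), -0.87 (SE 0.123, adjusted p = 0.00389) and -0.52 (SE 0.143, adjusted p = 0.0737) at 0, 10 and 100 ng/mL. HSPH1 (chr13:31134974-31162388, minus strand), the exchange factor, was at 163, 229 and 203 CPM in uninduced vehicle and 143, 140.3 and 135 CPM in uninduced thapsigargin libraries. These libraries did not overlap, and the log2 fold change of -0.50 had an adjusted p of 0.0108 by edgeR. At 10 and 100 ng/mL the HSPH1 libraries overlapped between treatments, with log2 fold changes of -0.11 and 0.30 (adjusted p = 0.596 and 0.374 by edgeR).

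**Figure D1:**
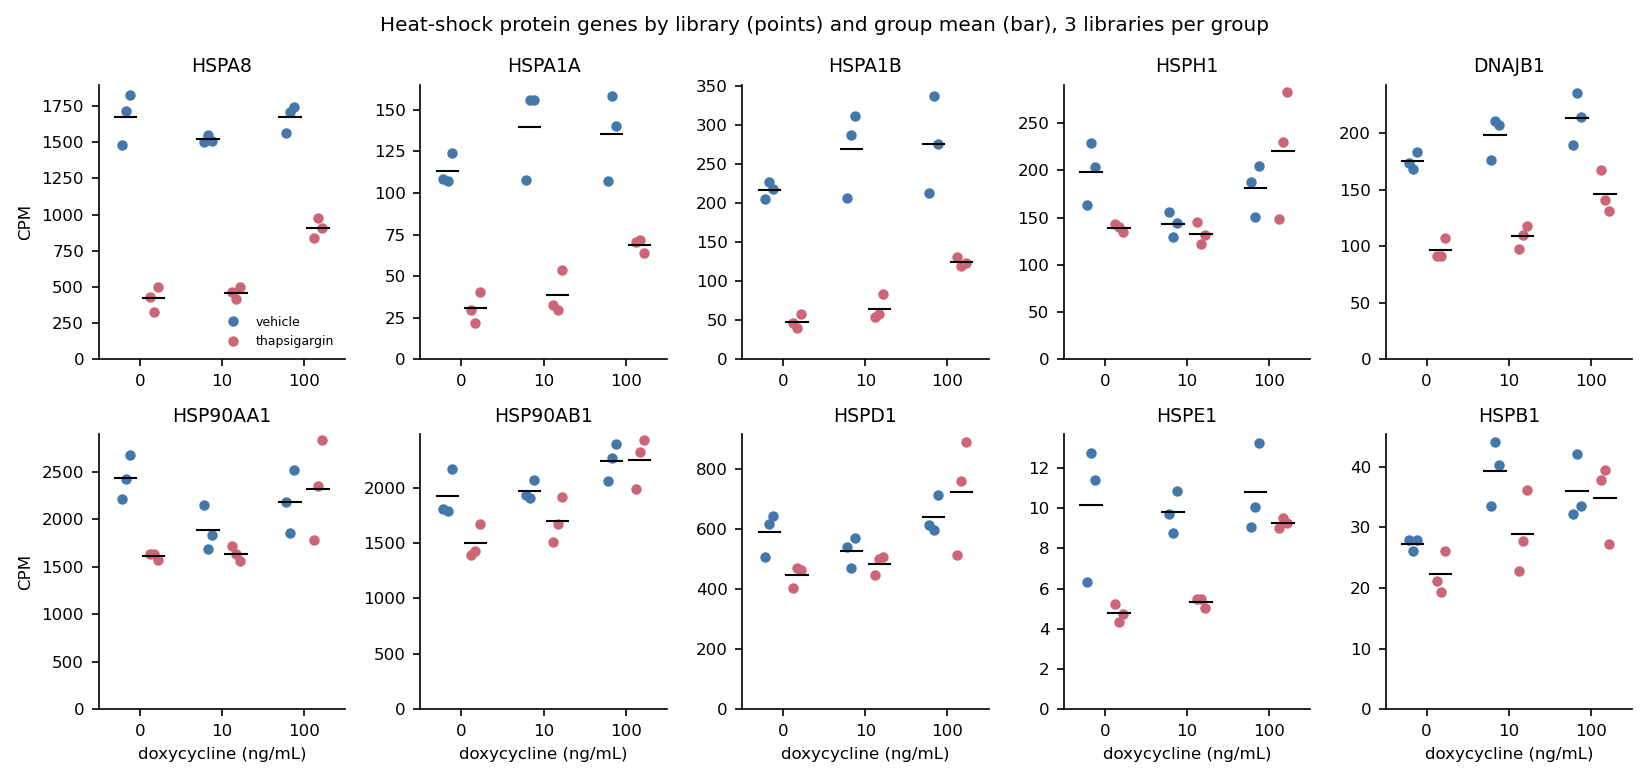
CPM (counts-per-million, linear axes starting at 0) of each heat-shock protein gene against doxycycline dose, with 1 point per library (blue vehicle, red thapsigargin) and a bar at the mean of 3. HSPA8, HSPA1A, HSPA1B and DNAJB1 show no overlap between treatments at any dose, and their thapsigargin points are highest at 100 ng/mL; HSP90AA1, HSP90AB1, HSPD1 and HSPB1 overlap at 10 and 100 ng/mL.

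The cytosolic HSP90s moved less. HSP90AA1 (chr14:102080738-102139699, minus strand), the inducible HSP90α, was at 2214, 2422 and 2680 CPM in uninduced vehicle and 1636, 1630 and 1571 CPM in uninduced thapsigargin libraries. These did not overlap, and its log2 fold change of -0.59 (SE 0.106, adjusted p = 0.00183 by edgeR) was past the threshold. HSP90AB1 (chr6:44246166-44253888, plus strand), the constitutive HSP90β, was at 1809, 1787 and 2168 CPM against 1396, 1430 and 1672 CPM, which did not overlap but gave -0.35 (SE 0.115, adjusted p = 0.044 by edgeR). At 100 ng/mL the values were 0.10 (adjusted p = 0.712) for HSP90AA1 and 0.03 (adjusted p = 0.898) for HSP90AB1, the latter -0.05 when scaled by library totals alone. Within libraries the HSP90AA1 to HSP90AB1 ratio differed by -0.05 log2 between treatments (exact permutation test, two-sided p = 0.582, adjusted p = 0.582).

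The mitochondrial chaperonin genes differed from each other. HSPE1 (chr2:197499994-197503457, plus strand) was at 6.35, 12.8 and 11.4 CPM in uninduced vehicle libraries and 5.25, 4.32 and 4.73 CPM in uninduced thapsigargin libraries, all lower, with a log2 fold change of -1.08 (SE 0.237, adjusted p = 0.00603 by edgeR). HSPD1 (chr2:197486581-197516737, minus strand) was at 508, 617 and 645 CPM against 406, 472 and 463 CPM, also without overlap, with -0.39 (SE 0.115, adjusted p = 0.0267). The ratio of HSPD1 to HSPE1 counts rose by 0.57 log2 under thapsigargin (exact permutation test within doses, two-sided p = 0.0015, adjusted p = 0.0042), by 0.64, 0.74 and 0.34 at 0, 10 and 100 ng/mL. HSPE1 rested on only 81 to 249 reads per library. It shares 22.3% of its 75-base windows with other genes and exon bases on the same strand with the readthrough gene HSPE1-MOB4, whose row was 0 in all 18 libraries. It also shares 281 exon bases (14.2% of its own) with HSPD1 on the opposite strand, and the strand setting of the counting was not given. The part these overlaps play in the level of HSPE1 and in the ratio was not tested.

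HSPB1 (chr7:76302544-76304295, plus strand), the small heat-shock protein, was at 27.9, 26.2 and 27.9 CPM in uninduced vehicle and 21.2, 19.4 and 26.1 CPM in uninduced thapsigargin libraries. Its log2 fold changes were -0.29, -0.45 and -0.02 at 0, 10 and 100 ng/mL (adjusted p = 0.138, 0.163 and 0.944 by edgeR), none past the threshold. Per kilobase of the principal transcript, uninduced vehicle levels ran from 722 CPM per kb for HSP90AA1, 719 for HSP90AB1 and 679 for HSPA8, whose spreads overlapped, through 240.3 for HSPD1, to 30.1 for HSPB1 and 10.7 for HSPE1. Thapsigargin took the per-kilobase level of HSPA8 to 171, below that of both HSP90s at 477 and 561 CPM per kb. Together the 10 genes held 0.735% ± 0.0584 (SD, n = 3) of all counts in uninduced vehicle libraries and 0.440% ± 0.0208 in uninduced thapsigargin libraries.

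In the groups given doxycycline fewer of the 10 genes passed the threshold. Calls over all genes fell too (1611, 212 and 29 at 0, 10 and 100 ng/mL), so the fall was not particular to the 10. At 10 ng/mL 4 of 10 were lower (HSPA8, HSPA1A, HSPA1B and DNAJB1), where 0.294% of all genes were called lower and 1.16% higher. Without Low ERN2 control replicate 1 the same 4 were called, with 248 calls over all genes. Fewer were called without Low ERN2 control replicate 2 (1, with 28 over all genes) or Low ERN2 stress replicate 2 (2, with 57 over all genes). At 100 ng/mL only HSPA8 was called, where 0.0208% of all genes were called lower and 0.18% higher. That call was lost without any 1 of the 5 libraries other than High ERN2 stress replicate 1, where 4 to 12 genes were called over all genes. Without High ERN2 stress replicate 1, 4 of 10 were lower at 100 ng/mL (HSPA8 -0.83, HSPA1A -0.99, HSPA1B -1.18 and DNAJB1 -0.65), with 7.84% of all genes called lower. Averaged over the 3 doses, 5 of 10 were lower (HSPA8 -1.55, HSPA1A -1.59, HSPA1B -1.80, DNAJB1 -0.77 and HSPE1 -0.74), where 12.2% of all genes were called lower and 11.3% higher. The other 5 lay between -0.28 and -0.12 on this average. The same 5 were called without High ERN2 stress replicate 1 and without Low ERN2 control replicate 1.

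**Figure D2:**
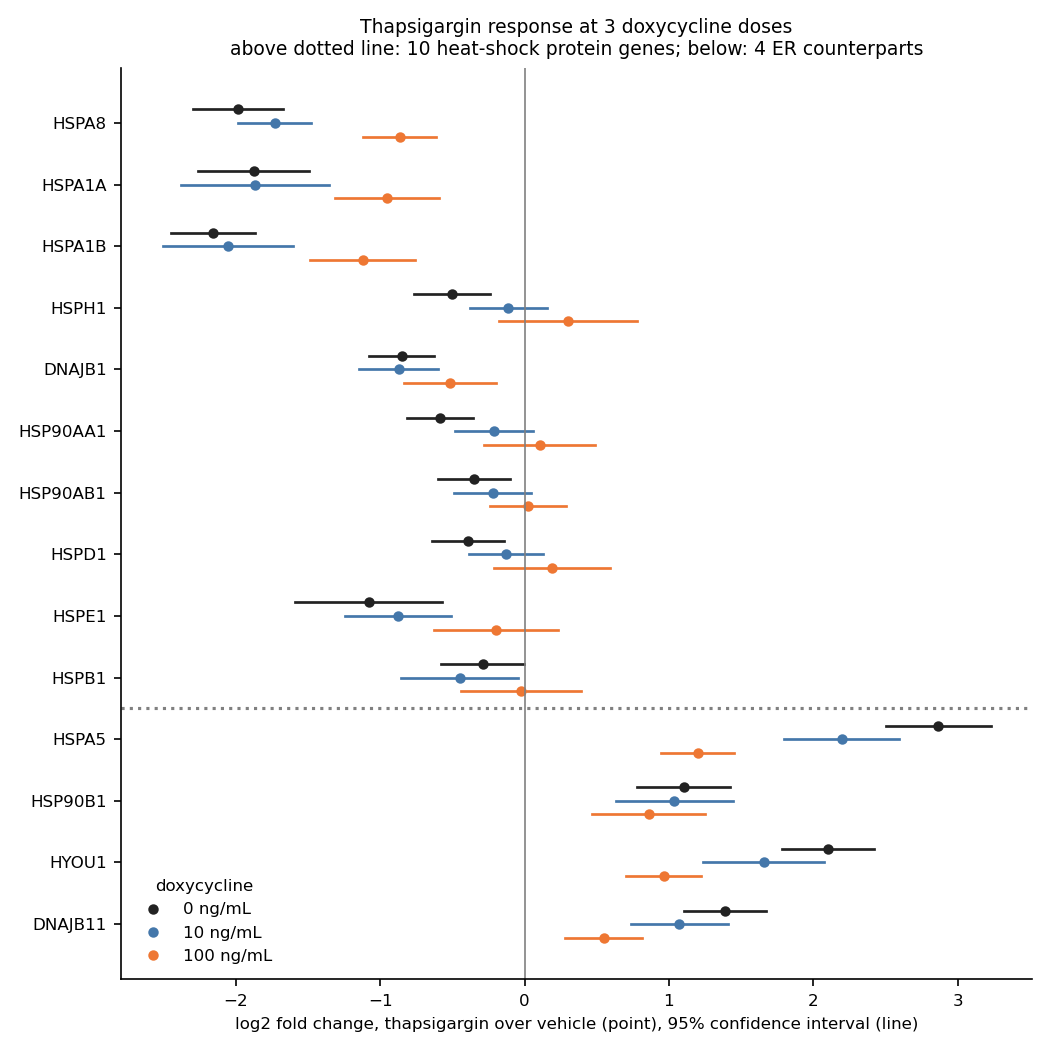
Log2 fold change of thapsigargin over vehicle (points) with 95% confidence intervals from edgeR (lines) at 0, 10 and 100 ng/mL doxycycline, each from 3 against 3 libraries. The points of the 4 ER counterparts below the dotted line lie right of 0 at every dose, whereas HSPA8 (-1.99, -1.73 and -0.86), HSPA1A, HSPA1B and DNAJB1 lie left of 0, and both kinds lie nearest 0 at 100 ng/mL.

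Ratios within a library do not depend on scaling between libraries, and were used to compare each cytosolic chaperone with its ER counterpart. The ratio of HSPA5 to HSPA8 counts was 0.316, 0.295 and 0.294 in uninduced vehicle libraries and 7.14, 14.5 and 6.12 in uninduced thapsigargin libraries. With High ERN2 it was 0.617, 0.562 and 0.492 in vehicle and 2.30, 2.30 and 2.35 in thapsigargin. The 2 genes thus changed places in read counts under thapsigargin at every dose, and the 3 High ERN2 stress libraries lay below the other 6 thapsigargin libraries. Within doses the ratio rose by 3.60 log2 (SE 0.166, exact permutation test, two-sided p = 0.00025, the smallest these relabellings can give, adjusted p = 0.00117). The rise was 4.83, 3.90 and 2.06 at 0, 10 and 100 ng/mL, in 9 of 9 thapsigargin libraries above all vehicle libraries of the same dose.

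The other pairs moved in the same direction. HSP90B1 (GRP94) over HSP90AB1 rose by 1.16 log2 (exact permutation test, p = 0.00025, adjusted p = 0.00117), DNAJB11 (ERdj3) over DNAJB1 by 1.74 (p = 0.00025, adjusted p = 0.00117), and HYOU1 (GRP170) over HSPH1, both HSP110-type exchange factors, by 1.67 (p = 0.0005, adjusted p = 0.00175). By dose the rise of HYOU1 over HSPH1 was 2.57, 1.74 and 0.70, and that of DNAJB11 over DNAJB1 was 2.23, 1.92 and 1.07. Between 100 and 0 ng/mL, with treatment as the stratum, DNAJB11 over DNAJB1 was lower by 0.87 log2 (exact permutation test, two-sided p = 0.01, adjusted p = 0.0233), and summed HSPA1A and HSPA1B over HSPA8 was higher by 0.24 (p = 0.02, adjusted p = 0.04). Without High ERN2 stress replicate 1 the former was -0.80 (exact permutation test, adjusted p = 0.0233) and the latter 0.20 (adjusted p = 0.07). The latter lost its call without any 1 of 9 libraries (adjusted p of at most 0.105). DNAJB11 over DNAJB1 differed by -0.29 in vehicle and -1.46 in thapsigargin, so its -0.87 averages unequal differences. HYOU1 over HSPH1 differed by 0.02 and -1.84 (exact permutation test, adjusted p = 0.084) and did not pass. Nor did HSP90B1 over HSP90AB1, at -0.20 and -0.81 (exact permutation test, adjusted p = 0.0525). HSPA5 over HSPA8 was 0.88 higher in vehicle and 1.89 lower in thapsigargin, so its mean over the strata of -0.50 (exact permutation p = 0.375, adjusted p = 0.438) averages opposite differences.

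**Figure D3:**
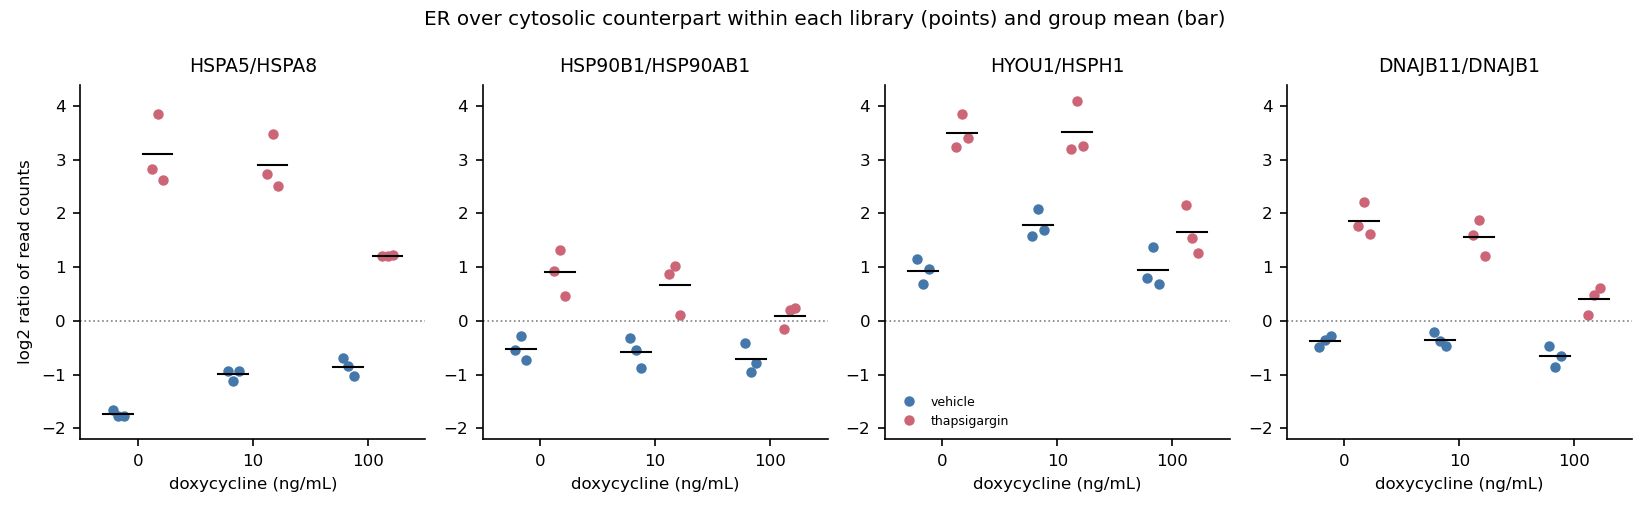
Log2 ratio of raw read counts of 4 ER chaperones to their cytosolic counterparts in each library (points; blue vehicle, red thapsigargin) and the mean of 3 (bar) by doxycycline dose. All 3 thapsigargin points lie above all 3 vehicle points for HSPA5/HSPA8 at each dose, rising from a group mean of -1.73 to 3.10 without doxycycline and from -0.85 to 1.21 at 100 ng/mL.

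Doxycycline moved none of the 10 genes past the threshold in vehicle-treated cells. At 10 ng/mL 0 of 10 were called by edgeR and by DESeq2, where edgeR called 0.193% of all genes. By edgeR 4 of 10 had an unadjusted p under 0.05, as did 4421 of all 14497 genes tested. Without Low ERN2 control replicate 1, 5 of 10 were called (HSPA1A 0.45, HSPA1B 0.46 and HSPB1 0.62 higher; HSPH1 -0.54 and HSP90AA1 -0.48 lower), with 18.8% of all genes called. At 100 ng/mL 0 of 10 were called by either tool, where edgeR called 0.838% of all genes higher and 7.49% lower. By edgeR 2 of 10, DNAJB1 and HSPB1, had an unadjusted p under 0.05, as did 4237 of all 14444 genes tested. The log2 differences at 100 ng/mL ran from -0.20 (HSP90AA1) to 0.36 (HSPB1), and that of HSPA8 was -0.04 (95% confidence interval -0.27 to 0.19).

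Under thapsigargin, 5 of the 10 genes were higher at 100 than at 0 ng/mL doxycycline. HSPA1B (log2 difference 1.37, SE 0.159, adjusted p = 7.33e-05 by edgeR), HSPA1A (1.17, SE 0.198, adjusted p = 0.00118), HSPA8 (1.11, SE 0.154, adjusted p = 0.000273), HSPE1 (0.95, SE 0.201, adjusted p = 0.00506) and HSP90AB1 (0.59, SE 0.127, adjusted p = 0.0061) were called higher. Among all genes 1.53% were called higher and 9.0% lower. The other 5 lay between 0.52 (HSP90AA1, adjusted p = 0.0335) and 0.69 (HSPD1, adjusted p = 0.0163). Each High ERN2 stress library exceeded each No ERN2 stress library for called and uncalled members alike. The share of all genes separated in this way was not counted, so this does not set the members apart. All 10 had an unadjusted p under 0.05 by edgeR, as did 5112 of all 14358 genes tested. The median was 0.67 for the 10 genes and 0.04 for all genes. ER chaperones went the other way, with 11 of 17 lower and 0 higher, among them HYOU1 (-1.26, adjusted p = 0.000159) and CALR, the calcium-binding lectin chaperone (-1.72, adjusted p = 4.92e-06).

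High ERN2 stress replicate 1 bore on the genes that were not called. HSP90AA1 was at 1781 CPM in that library and at 2346 and 2830 CPM in the other two, HSPD1 at 514 against 763 and 893 CPM, and HSPH1 at 148 against 229.6 and 283 CPM. It was the lowest of its group for these 3 genes and for HSPA8, HSP90AB1 and HSPE1, but the highest for HSPA1B and DNAJB1. ERN2 itself was at 272 CPM there and at 175 CPM in both others, and its part in these values was not tested. Without it 9 of 10 were called higher (HSPB1 had 0.59, adjusted p = 0.0139 by edgeR), with 13.5% of all genes called higher. Without any other single library 2 to 4 of 10 were called (763 to 1302 over all genes), fewest (2) without High ERN2 stress replicate 2.

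At 10 ng/mL doxycycline under thapsigargin, 0 of 10 were called by edgeR and by DESeq2 (0 with an unadjusted p under 0.05), and edgeR called 0.0% of all genes (612 with an unadjusted p under 0.05; DESeq2 called 39). The same-numbered libraries of these 2 groups deviated together, and with the replicate number as a block HSPA1B was called higher (log2 difference 0.41, adjusted p = 0.00162 by edgeR), 1 of 10, with 3.89% of all genes called. HSPA1A (0.31, adjusted p = 0.0203), HSPB1 (0.35, adjusted p = 0.0205) and HSP90AB1 (0.17, adjusted p = 0.0155) did not pass with the block.

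**Figure D4:**
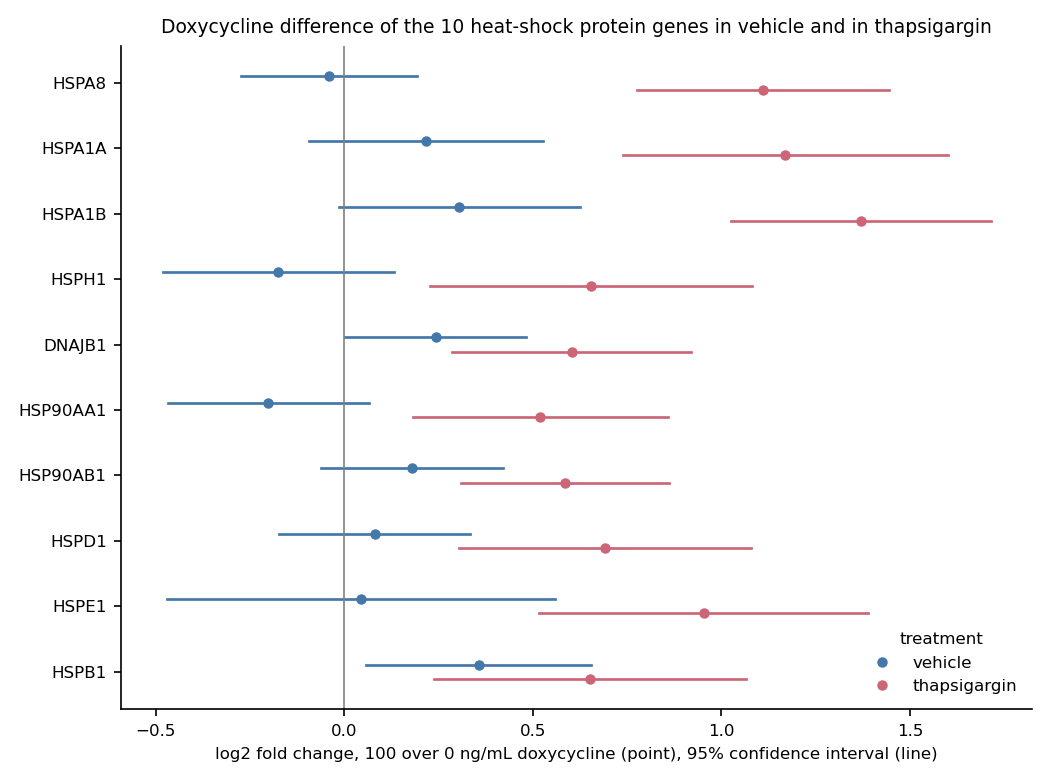
Log2 difference between 100 and 0 ng/mL doxycycline (points) with 95% confidence intervals from edgeR (lines) for each heat-shock protein gene in vehicle (blue) and in thapsigargin (red), 3 against 3 libraries each. The red intervals all lie right of 0, from 0.52 to 1.37 at their centres, and the blue centres lie between -0.20 and 0.36.

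The difference of these differences was tested as an interaction, over the same libraries as the comparisons above. At 100 ng/mL the thapsigargin response was less negative or more positive for all 10 genes, by 0.35 (HSPB1) to 1.21 (HSPA8) on the log2 scale. In edgeR 0 of 10 passed the threshold, where 0.0406% of all genes were called. An unadjusted p under 0.05 by edgeR was reached by 9 of the 10, and by 3651 of all 14768 genes tested. HSPA8 was nearest at an adjusted p of 0.0109 (SE 0.187, 95% confidence interval 0.81 to 1.61), followed by HSPA1B at 1.13 (adjusted p = 0.0278) and HSPA1A at 1.01 (adjusted p = 0.0651). DESeq2 called 2 of 10, HSPA8 and HSPA1B, and 341 over all genes. Without High ERN2 stress replicate 1 edgeR called 5 of 10 (HSPA8 1.21, HSPA1B 1.03, HSPH1 1.05, HSP90AA1 0.88 and HSPD1 0.81), with 5.79% of all genes called higher. At 10 ng/mL the interaction called 0 of 10 in edgeR and in DESeq2 (2, HSPH1 and HSP90AA1, with an unadjusted p under 0.05) and 0.0% of all genes (664 with an unadjusted p under 0.05; DESeq2 called 2), and edgeR also called 0 of 10 without Low ERN2 control replicate 1.

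The order of the 6 group means differed between the genes. For HSPA8, HSPA1A, HSPA1B and DNAJB1 the 3 vehicle groups ranked highest and overlapped their neighbours in the order, the High ERN2 stress group came next and apart from its neighbours, and the Low and No ERN2 stress groups were lowest and overlapped. HSPE1 had the same order except that its High ERN2 stress libraries overlapped the vehicle libraries. For HSPH1, HSP90AB1 and HSPD1 the High ERN2 stress group had the highest mean of the 6, at 220.2 ± 67.8, 2249 ± 228 and 723 ± 192 CPM (SD, n = 3), but its libraries overlapped those of the next group. HSP90AA1 was highest in the No ERN2 control group and HSPB1 in the Low ERN2 control group, again with overlap with the next group. Over the 18 libraries, which share the differences between groups, Pearson's r of log2 CPM was above 0 for 44 of the 45 pairs of genes, from -0.02 (HSPH1 and HSPB1) to 0.99 (HSPA1A and HSPA1B). The genes most like HSPA8 were HSPA1B (r = 0.97) and ANKRD33B (0.97), those most like HSPA1B were HSPA1A (0.99) and DNAJB1 (0.98), and those most like HSPD1 were CCT2 (0.98), a subunit of the cytosolic chaperonin, and DARS (0.97). HSPH1 was most like ACTR3 (0.97) and the related HSP110 gene HSPA4 (0.97), HSP90AB1 most like XRCC6 (0.98) and C1QBP (0.97), and HSP90AA1 most like FKBP3 (0.97) and DEPDC1B (0.96). HSPE1 was most like CTDSPL (0.94) and NDUFB3 (0.94), and HSPB1 most like HECTD3 (0.96) and NME4 (0.95).

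Other chaperone genes were compared under thapsigargin, averaged over the doses, where 11.3% of all genes were called higher and 12.2% lower. Of 21 tested HSP70 relatives and cofactors 3 were higher and 3 lower, with a median log2 fold change of -0.05. DNAJB5, a J-domain protein, rose by 1.59 (adjusted p = 3.69e-11 by edgeR), and HSPA2, an HSP70 known from testis, fell by 1.28 (adjusted p = 2.27e-07). The others, named after their values were seen, were BAG5 (0.39), HSPA14 (0.32), DNAJA1 (-0.51) and HSPA6 (-1.52), the last at a mean of only 0.443 CPM in vehicle. Of 15 HSP90 cochaperones, 1 was lower (UNC45A, -0.56, adjusted p = 0.000223) and 0 higher. Of 16 mitochondrial chaperones and proteases, 3 were higher and 0 lower: GRPEL2, a mitochondrial HSP70 exchange factor (1.07, adjusted p = 7.28e-08), HSCB (0.47, adjusted p = 0.000716) and HSPA9, mitochondrial HSP70 (0.30, named after its value was seen).

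Among the chaperonin TRiC and its partner prefoldin, 3 of 14 were lower and 0 higher, PFDN5 (-0.48, adjusted p = 3.99e-05 by edgeR), PFDN6 (-0.47, adjusted p = 0.000374) and CCT3 (-0.33, named after its value was seen). All 14 lay below 0, with a median of -0.11. The heat shock factor genes HSF1, HSF2 and HSF4 did not pass. HSBP1, listed with them as an HSF1-binding protein and not itself a heat shock factor, was lower (-0.50, adjusted p = 8.25e-06 by edgeR). Of 4 tested small heat-shock proteins edgeR called 0 (3 with an unadjusted p under 0.05, against 6911 of all 15023 genes tested). DESeq2 called 1 of them, and 4249 over all genes. DNAJA4, HSPB2, HSPB3, HSPB7 and HSPB9 did not pass the filter on low counts. ER chaperones were 13 of 17 higher and 0 lower, with a median of 0.98, and those with the lowest adjusted p were HSPA5 (2.07, adjusted p = 4.12e-11) and MANF (1.56, adjusted p = 2.65e-10).

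**Figure D5:**
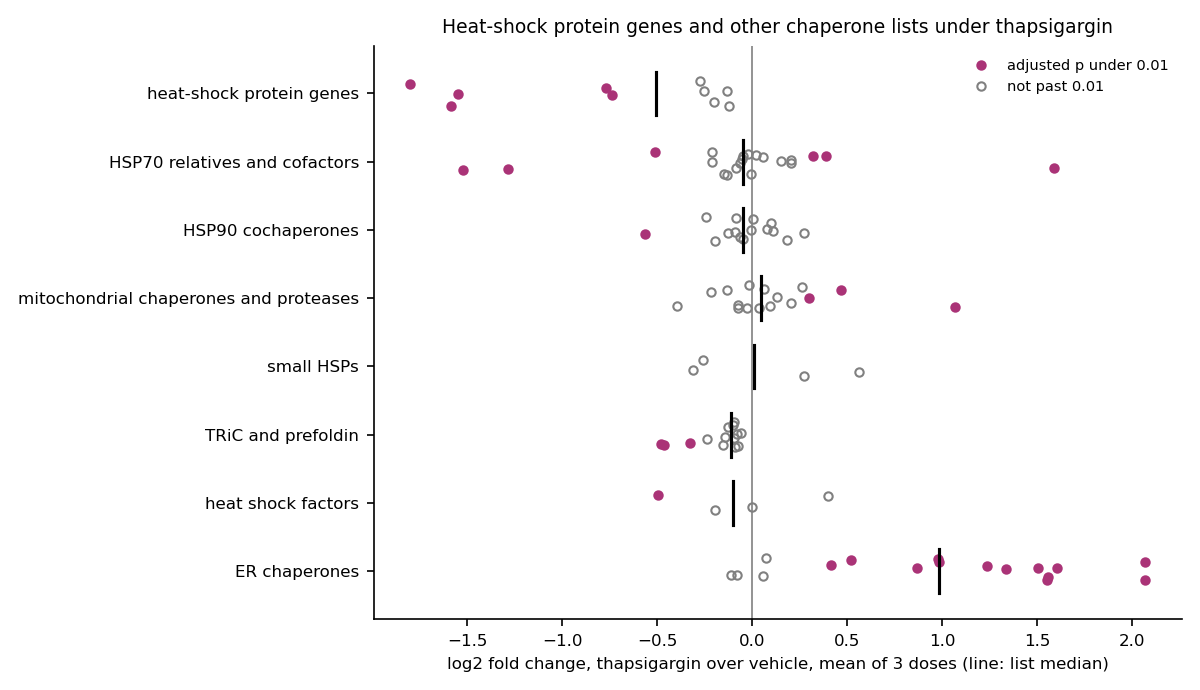
Log2 fold change of thapsigargin over vehicle averaged over the 3 doses, with 1 point per gene (filled past an adjusted p of 0.01 in edgeR, open not past it) and a line at each list's median, for the heat-shock protein genes and 7 other chaperone lists. The heat-shock protein genes lie wholly left of 0 and the ER chaperones mostly right of it (medians -0.51 and 0.98), while the other medians lie between -0.11 and 0.05.

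Between 100 and 0 ng/mL under thapsigargin the same lists were compared, where 1.53% of all genes were called higher and 9.0% lower. By edgeR 5112 of all 14358 genes tested had an unadjusted p under 0.05, and DESeq2 called 2312 genes. Of 20 tested HSP70 relatives and cofactors 2 were higher, DNAJA1 (0.66, adjusted p = 0.00931 by edgeR) and ST13, the HSP70-interacting protein HIP (0.64, adjusted p = 0.00791), and 0 lower. Of TRiC and prefoldin genes 2 of 14 were higher, PFDN4 (1.70, adjusted p = 0.00778) and PFDN6 (0.72, adjusted p = 0.00575). Of the 4 genes HSF1, HSF2, HSF4 and HSBP1, only HSBP1, not itself a heat shock factor, was higher (0.69, adjusted p = 0.0033 by edgeR). Of HSP90 cochaperones edgeR called 0 of 15 (11 with an unadjusted p under 0.05, and 14 above 0) and DESeq2 2. Of mitochondrial chaperones it called 0 of 16 (3 unadjusted, 0 by DESeq2) and of small heat-shock proteins 0 of 4 (1 unadjusted, 1 by DESeq2). Without High ERN2 stress replicate 1 the calls higher rose to 8 HSP70 relatives, 6 HSP90 cochaperones, 3 mitochondrial chaperones, 1 small heat-shock protein, 9 TRiC and prefoldin genes and 2 genes of the list of heat shock factors and HSBP1. The share of all genes called higher rose at the same time from 1.53% to 13.5%, with 11 ER chaperones lower as before. In vehicle the 100 ng/mL dose moved 0 genes of these 6 lists past the threshold in edgeR (15 with an unadjusted p under 0.05, and 2 called by DESeq2). Over all genes, 4237 of 14444 tested had an unadjusted p under 0.05 by edgeR, and DESeq2 called 1609. Of 17 ER chaperones 4 were higher, among them DNAJB9 (2.07, adjusted p = 2.39e-06 by edgeR), and 1 lower, CALR (-1.45, adjusted p = 1.9e-06). Among all genes 0.838% were called higher and 7.49% lower.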

How the data were processed

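Gene counts from mRNA-seq of 18 HEK293doxERN2 libraries were analysed. Per the study's methods and the processing notes, the authors aligned 75-base single-end reads of stranded KAPA libraries with STAR to hg38 within the VIPER pipeline and used DESeq2; the annotation, strand setting and versions are not given in the sources used here. The deposited values are raw counts per gene symbol, and 28 symbols had become dates. Columns were mapped to libraries through the column numbers in the labels.

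CPM were scaled by TMM over all libraries. Each comparison was fitted with edgeR 4.0.16 (R 4.3.3; quasi-likelihood, TMM, filterByExpr with a minimum count of 10, Benjamini-Hochberg over all genes, threshold 0.01). SE is the log2 fold change over the square root of F. Log2 count ratios (0.5 added) were tested by exact two-sided permutation within strata, adjusted over 14 tests, threshold 0.05. Alternatives were DESeq2 1.42.0, RLE, library totals alone, no filter, all 6 groups, a replicate block, an adjusted p of 0.05, summed HSPA1A and HSPA1B, and each library left out. Scripts were tested on simulated data.

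Counts of same-group libraries were further apart than sampling alone would give (chi-square per degree of freedom 7.33 to 63.8). Same-numbered libraries were taken as paired only for 10 against 0 ng/mL under thapsigargin, where every pair's deviations correlated (r 0.45 to 0.59). Positions are GENCODE 29 (GRCh38). Apart from the members and the genes in ratio pairs, up to 2 genes per list with the lowest adjusted p past 0.01 were named in the comparisons of thapsigargin over 3 doses and of 100 against 0 ng/mL, and the 2 most correlated genes per member; others are marked. The members and lists were chosen with earlier results of these data known.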

Additional observations from a re-analysis of the deposited data

How the results depend on the processing

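Of the 10 genes, the number called differed from the reported one by more than 1.5 times as follows. The number in brackets after each setting is the calls over all genes. For thapsigargin at 100 ng/mL (1 called, and 29 of all 14427 genes tested) it was 3 at an adjusted p of 0.05 (494). It was 3 without the filter on low counts (299), 3 in DESeq2 (728) and 4 in a fit with all 6 groups (941). With library totals alone, chosen after seeing the data, it was 2 (51), and with the replicate block 0 (4). Averaged over the doses (5 called, and 3534 of all 15023 genes tested) it was 8 at an adjusted p of 0.05 (5500). For 100 against 0 ng/mL under thapsigargin (5 called, and 1512 of all 14358 genes tested) it was 10 at an adjusted p of 0.05 (3018). It was 9 without the filter (2236) and 9 in DESeq2 (2312). For the interaction at 100 ng/mL (0 called, and 6 of all 14768 genes tested) it was 2 at an adjusted p of 0.05 (149). It was 2 without the filter (86), 2 in DESeq2 (341) and 1 with all 6 groups (35). For 10 against 0 ng/mL under thapsigargin (0 called, and 0 of all 14509 genes tested) it was 1 with the replicate block (564). With 1 library left out, calls ranged from 1 to 4 for thapsigargin at 10 ng/mL (28 to 494 over all genes) and 0 to 4 at 100 ng/mL (4 to 2568). They ranged from 0 to 5 for 10 against 0 ng/mL in vehicle (0 to 2743) and 2 to 9 for 100 against 0 ng/mL under thapsigargin (763 to 3950). For the interaction at 100 ng/mL the range was 0 to 5 (2 to 1286).

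Directions that turned belonged to values near 0. With library totals alone HSP90AB1 under thapsigargin at 100 ng/mL was -0.050 (-0.020 with all 6 groups), HSPA8 at 100 ng/mL in vehicle was 0.0089 and the HSPA1A interaction at 10 ng/mL was -0.0031; this scaling moved the median of all genes in the interaction at 100 ng/mL from 0.04 to -0.14. With 1 library left out, thapsigargin at 100 ng/mL gave -0.057 to 0.24 for HSP90AA1, -0.034 to 0.085 for HSP90AB1 and -0.13 to 0.13 for HSPB1. For 10 against 0 ng/mL in vehicle HSP90AB1 gave -0.018 to 0.13 and HSPE1 -0.31 to 0.14. For 100 against 0 ng/mL in vehicle HSPA8 gave -0.12 to 0.021, HSPD1 -0.016 to 0.15 and HSPE1 -0.21 to 0.24. For 10 against 0 ng/mL under thapsigargin HSPA8 gave -0.026 to 0.26 and HSP90AA1 -0.029 to 0.051. For the interaction at 10 ng/mL HSPA1A gave -0.29 to 0.27, HSPA1B -0.11 to 0.27 and DNAJB1 -0.10 to 0.072.

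Between 100 and 0 ng/mL the log2 ratios with 1 library left out ranged from -0.29 to -0.18 for HSP90AA1 over HSP90AB1, -0.61 to -0.40 for HSP90B1 over HSP90AB1 and 0.18 to 0.30 for summed HSPA1A and HSPA1B over HSPA8. Under thapsigargin the last ranged from -0.23 to -0.13. With the replicate block (exact sign-flip permutation of same-numbered pairs) DNAJB11 over DNAJB1 at -0.87 and summed HSPA1A and HSPA1B over HSPA8 at 0.24 had an adjusted p of 0.116. With 6 pairs the smallest p before adjustment is 0.0312, so this test had almost no room to pass and says nothing about their stability.

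Over all genes the calls for thapsigargin at 0, 10 and 100 ng/mL were 1611, 212 and 29. They were 2302, 1039 and 728 in DESeq2, 3571, 3620 and 4 with the replicate block, 2173, 529 and 299 without the filter, 3260, 1009 and 494 at an adjusted p of 0.05, and 1273, 676 and 941 with all 6 groups. Library totals alone gave 51 at 100 ng/mL, 28 higher and 23 lower, against 26 and 3. For 10 against 0 ng/mL in vehicle the 28 calls became 378 in DESeq2, 124 with the block, 623 without the filter, 110 at 0.05 and 3 with all 6 groups. For 100 against 0 ng/mL the 1203 calls in vehicle became 750 with the block and 2063 at 0.05, and the 1512 under thapsigargin became 2312 in DESeq2, 3018 at 0.05 and 2641 with all 6 groups. For 10 against 0 ng/mL under thapsigargin the 0 calls became 39 in DESeq2, 564 with the block and 1 without the filter. The interaction at 10 ng/mL went from 0 calls to 2 in DESeq2 and to 1 with the block, without the filter, at 0.05 and with all 6 groups. The 6 calls of the interaction at 100 ng/mL became 341 in DESeq2, 3 with the block, 86 without the filter, 149 at 0.05, 35 with all 6 groups, 14 with RLE and 20 with library totals alone. Averaged over the doses the 3534 calls became 5500 at 0.05. The causes of these changes were not tested, and outside 10 against 0 ng/mL under thapsigargin the libraries were not taken as paired. In the other comparisons of 2 groups the lowest correlation of same-numbered libraries was at most 0.078, and 0 to 4 of 6 libraries deviated most like the one with their own number (6 of 6 for 10 against 0 ng/mL under thapsigargin).

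With 3 libraries a group the confidence intervals are wide, and HSPE1 rests on 81 to 249 reads a library.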
